A study of Mus musculus with 18 samples.

Results

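Matrix metalloproteinases (MMPs), the ADAMTS proteases with their protease-free relatives (ADAMTS-like genes) and the tissue inhibitors of metalloproteinases (TIMPs) were followed in MC38 tumours treated with a MEK inhibitor, an agonist anti-CD40 antibody or both. Every gene whose symbol starts with Mmp or Timp followed by a digit, or with Adamts, was taken, which gave 42 of the 18193 genes that had a probe set with a single gene symbol. The 42 comprised 18 MMPs, 15 ADAMTS proteases, 5 ADAMTS-like genes and 4 TIMPs. Genes measured by more than 1 probe set were represented by the brightest, by its average across the 18 arrays.

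MC38 is a mouse colon carcinoma line. It was implanted subcutaneously with Matrigel in C57BL/6-Ly5.1 mice of 6 to 12 weeks, so all groups carried the same line in the same host and the same injected matrix. RNA of unsorted tumour pieces was hybridised to 1 Affymetrix array per tumour, and tumours were collected on day 22 of tumour growth. The control group received the vehicle MCT and control IgG (5 tumours), the anti-CD40 group vehicle and the agonist antibody (4), the MEKi group GDC-0623, an inhibitor of the kinase MEK, at 30 mg/kg daily for approximately 2 weeks with control IgG (5), and the MEKi/CD40 group GDC-0623 and the agonist antibody (4). Antibodies were given on treatment days 3, 5 and 7 and on the day before sampling. Replicates were separate animals. A tumour piece holds malignant, stromal and immune cells together, so fewer cells of a type and less RNA per cell cannot be told apart.

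MMPs and ADAMTS proteases are zinc enzymes that cut matrix and cell-surface proteins, and most are made as inactive precursors. Collagenases cleave fibrillar collagen, gelatinases cleave denatured collagen, stromelysins have broad targets, and several ADAMTS members cleave the proteoglycans aggrecan and versican. TIMPs bind the active site and block these enzymes, each with its own range of targets. In tumours the genes are made largely by fibroblasts and myeloid cells as well as by malignant cells, and AP-1, a transcription factor downstream of MAP kinases, is a known regulator of several MMP promoters. RNA levels say nothing of how much enzyme was active.

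Several of these genes lie side by side in the MMP cluster of chromosome 9, and their promoters are shown because Mmp13, Mmp12, Mmp3 and Mmp8 all reached their highest values on 1 MEKi/CD40 array while Mmp10 did not, with the Timp3 promoter for comparison. The RefSeq table for GRCm38.p6 held a promoter for 27 of the 42 members. The sequences are the 120 bases before the listed start of transcription, 5′ to 3′ on the plus strand, with the AP-1 motif TGANTCA, which reads the same on both strands, in capitals.
Mmp13, chr9:7272394-7272513: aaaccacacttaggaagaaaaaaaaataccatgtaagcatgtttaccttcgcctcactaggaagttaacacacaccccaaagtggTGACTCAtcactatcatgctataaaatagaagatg
Mmp12, chr9:7347254-7347373: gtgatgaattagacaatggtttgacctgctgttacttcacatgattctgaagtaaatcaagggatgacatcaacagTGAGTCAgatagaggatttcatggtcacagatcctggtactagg
Mmp3, chr9:7445702-7445821: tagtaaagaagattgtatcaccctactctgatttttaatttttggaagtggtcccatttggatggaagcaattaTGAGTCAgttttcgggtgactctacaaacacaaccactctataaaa
Mmp10, chr9:7502222-7502341: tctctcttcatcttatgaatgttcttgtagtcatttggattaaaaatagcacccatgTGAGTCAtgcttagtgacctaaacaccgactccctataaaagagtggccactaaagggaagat
Mmp8, chr9:7558309-7558428: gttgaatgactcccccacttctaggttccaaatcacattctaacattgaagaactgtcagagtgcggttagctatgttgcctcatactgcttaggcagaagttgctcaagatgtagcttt
Timp3, chr10:86300292-86300411: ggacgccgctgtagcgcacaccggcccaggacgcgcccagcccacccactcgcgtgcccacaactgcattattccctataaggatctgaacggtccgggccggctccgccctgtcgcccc

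The motif began 35 bases before the start of Mmp13, 44 before that of Mmp12, 46 before that of Mmp3 and 63 before that of Mmp10. Mmp12 has a second listed start, further upstream, and Mmp7 has one further downstream, and both of these promoters lacked it. Within the 250 bases before a start, 8 of the 9 members with an entry on chromosome 9 held the motif and 0 of the 18 members with an entry on other chromosomes did, against 6.75% of all 32851 promoter entries. The other carriers were Mmp1a, Mmp1b, Mmp7 and Mmp20, all at the floor on every array. In Mmp20 the letters were TGAATCA, whereas the other carriers read TGAGTCA or TGACTCA. The carriers Mmp13, Mmp12, Mmp3 and Mmp10 were above the floor on every array. Mmp8, without the motif, was above it on MEKi/CD40 3 only. Whether the motif goes with a measurable level was not tested. The chromosome 9 promoters had a median GC content of 40.4%, below the 52.4% of all entries, while the 4 TIMP promoters ran from 53.6% to 68.0%. A match describes letters, not a bound site.

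All values are log2 intensities as deposited. The lowest value, 2.16, made up 34.5% of the table, and a value below 3, or within 0.3 of a value of 6 or less shared by 6 or more arrays of a probe set, was taken as the floor, where signal is not measurable. By this rule 12 of the 42 members were at the floor on all 18 arrays (Adamts3, Adamts10, Adamts18, Adamts19, Adamts20, Adamtsl2, Mmp1a, Mmp1b, Mmp7, Mmp20, Mmp24 and Timp4) and 25 were above it on every array. Within groups, arrays correlated at 0.987 to 0.998 over all probe sets. Sample titles carry a number, in a lower series for control 1 and 2, MEKi 1 and 2 and all anti-CD40 and MEKi/CD40 tumours and in a higher series for the other 6, and its meaning is not explained by the sources used here. The epithelial markers Krt8, Krt18, Krt20, Vil1, Cdx2 and Cldn7 were at the floor on all 18 arrays and Epcam was at most 2.76, so 7 of the 8 colon epithelium markers were not measurable. The eighth, Cdh1, was above the floor on every array (4.35 to 6.89), and against control it fell by 1.20 on the log2 scale with both drugs (SE 0.30, adjusted p = 0.0349). The MEKi/CD40 3 array was the highest of its group in 13 and the lowest in 10 of the 30 members above the floor somewhere. Other arrays were also often at an end of their group, with MEKi 4 lowest in 16 and anti-CD40 3 and MEKi/CD40 4 lowest in 11 each. The share over all genes was not counted. Values of MEKi/CD40 3 are named where they matter.

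Against control, tumours given both drugs had higher RNA of Mmp2, Mmp3, Mmp12, Mmp14, Mmp19, Mmp23, Adamts4, Adamts5, Adamts12 and Adamtsl1 and also of the inhibitor genes Timp1 and Timp3, while Adamts8 and Adamtsl3 were lower. Of 42 members, 12 were higher and 2 lower with MEKi/CD40 (limma, Benjamini-Hochberg adjusted p under 0.05 over 45037 probe sets), where 7.65% of all genes were higher and 12.0% lower. Proteases accounted for 9 of the higher members (6 of 18 MMPs and 3 of 15 ADAMTS), TIMPs for 2 of 4 and ADAMTS-like genes for 1 of 5. The median log2 difference was 0.50 over the 42 members, 0.19 over the 33 proteases and 0.87 over the TIMPs, beside 0.00 over all genes. These medians include genes at the floor on all arrays, where a difference is not measurable. Such were 10 of the 33 proteases, 1 of the 4 TIMPs and 47.6% of all probe sets. The medians therefore do not rank inhibitors against proteases. With MEKi alone, 4 members were higher and 1 lower, against 6.08% and 5.09% of all genes, the 4 being Timp2, Timp3, Adamts5 and Mmp11 and the 1 Adamts8. With anti-CD40 alone 0 of 42 members passed, as did 0.0% of all genes in limma. An unadjusted p under 0.05 was found for 1 of the 42 members, Timp3, and for 2423 of the 45037 probe sets. The 3 comparisons share the control arrays.

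**Figure D1:**
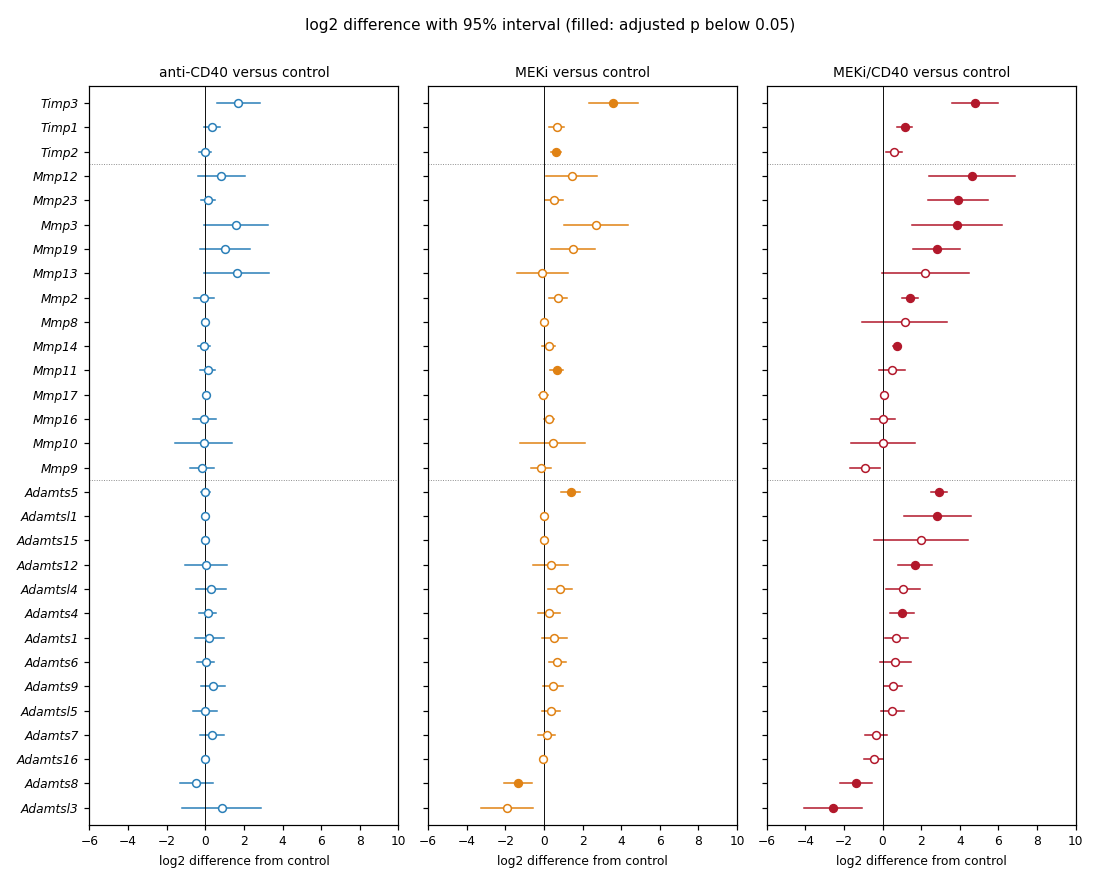
Log2 difference from control (horizontal axis) for the 30 members above the floor on at least 1 array (vertical axis, TIMPs on top, MMPs in the middle, ADAMTS and ADAMTS-like below), with 95% intervals from limma and filled points where the adjusted p was under 0.05. With both drugs Timp3, Mmp12, Mmp23 and Mmp3 lie furthest to the right, at 4.80, 4.64, 3.91 and 3.87, and Adamtsl3 furthest to the left at -2.57.

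Among the inhibitors, Timp3 rose with the MEK inhibitor and with both drugs. Timp3 encodes a TIMP that stays bound to the matrix and also blocks ADAMTS4 and ADAMTS5. Its log2 intensity was 4.04, 5.90, 5.21, 5.65 and 6.45 on control arrays 1 to 5, 7.14, 6.78, 7.22 and 7.51 with anti-CD40, 9.65, 9.29, 10.06, 8.00 and 8.23 with MEKi and 10.48, 10.89, 9.76 and 9.87 with MEKi/CD40. Every treated array lay above every control array, and the MEKi and MEKi/CD40 arrays also lay above all anti-CD40 arrays. Timp3 was 27.9-fold higher with MEKi/CD40 than in control (log2 4.80 ± 0.50 SE, adjusted p = 0.00172) and 12.1-fold higher with MEKi (3.60 ± 0.56, adjusted p = 0.0112). The anti-CD40 difference of 1.71 ± 0.47 did not pass (adjusted p = 0.673), nor did that between MEKi/CD40 and MEKi (1.20 ± 0.50, adjusted p = 0.28). All 4 Timp3 probe sets passed in both comparisons, at 3.48 to 4.80 and 2.55 to 3.60. Against the 2 control arrays of the lower number series alone the MEKi/CD40 difference was 5.28 with an adjusted p of 0.0516.

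Timp1, a secreted inhibitor that is also a growth-promoting factor, was 9.81, 10.04, 10.23, 10.49 and 10.34 in control, 10.69, 10.13, 10.58 and 10.71 with anti-CD40, 11.07, 10.88, 11.08, 10.36 and 10.80 with MEKi and 11.41, 11.16, 11.60 and 11.15 with MEKi/CD40. The MEKi/CD40 arrays were the highest, overlapping no other group. Timp1 rose 2.22-fold against control (log2 1.15 ± 0.16, adjusted p = 0.00417), and the MEKi difference was 0.66 ± 0.17 (adjusted p = 0.0561). Timp2, which blocks MMPs and also helps MMP14 activate pro-MMP2, lay between 13.62 and 14.14 in control, 13.71 and 14.11 with anti-CD40, 14.47 and 14.61 with MEKi and 14.11 and 14.73 with MEKi/CD40. It rose 1.53-fold with MEKi (0.62 ± 0.11, adjusted p = 0.0153), without overlap with control. With both drugs the difference was 0.60 ± 0.17 and missed the threshold (adjusted p = 0.0558), as MEKi/CD40 3 at 14.11 fell back among the controls, and without that array it was 0.74 with an adjusted p of 0.0152. Timp4 stayed at 3.38 to 3.44 on all arrays, at the floor.

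**Figure D2:**
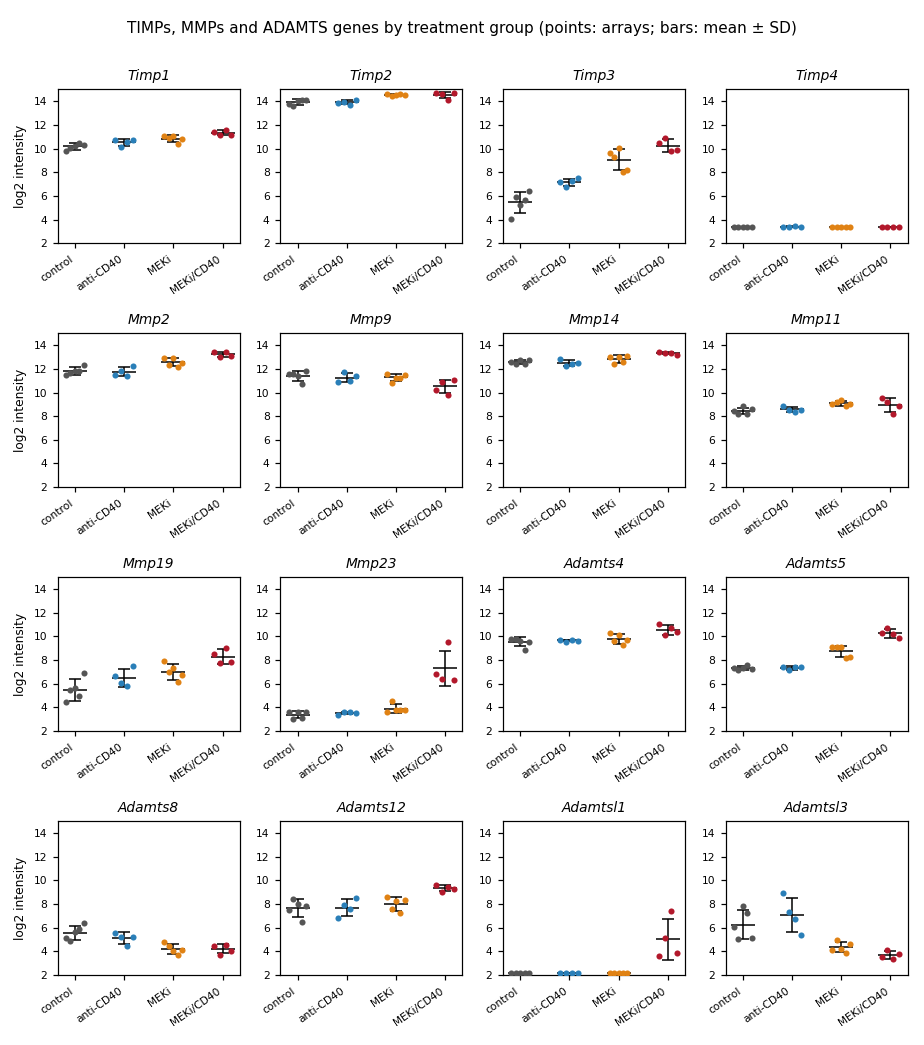
Log2 intensity (vertical axis) of 16 members in the 4 treatment groups (horizontal axis), where points are arrays and bars are the mean ± SD of a group. Timp3 and Adamts5 step up from control to MEKi to MEKi/CD40 (means 5.45, 9.05 and 10.25 for Timp3 and 7.34, 8.73 and 10.27 for Adamts5), whereas Mmp23 and Adamtsl1 leave the level of the other groups with both drugs.

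Of the gelatinases, Mmp2 rose, and Mmp9 was lower with both drugs by a difference that did not pass. Mmp2, the gelatinase typical of fibroblasts, was 11.51, 11.65, 11.84, 11.78 and 12.33 in control, 11.52, 11.85, 11.41 and 12.26 with anti-CD40, 12.94, 12.34, 12.88, 12.12 and 12.50 with MEKi and 13.42, 13.04, 13.44 and 13.10 with MEKi/CD40. All MEKi/CD40 arrays exceeded all others. The rise against control was 2.69-fold (log2 1.43 ± 0.18, adjusted p = 0.00285), and the MEKi difference of 0.73 ± 0.21 did not pass (adjusted p = 0.0668). Mmp9, the gelatinase typical of neutrophils and macrophages, ran from 10.70 to 11.86 in control, 10.89 to 11.72 with anti-CD40, 10.82 to 11.57 with MEKi and 9.83 to 11.05 with MEKi/CD40. Its difference with both drugs was -0.91 ± 0.33 (adjusted p = 0.123), with a 95% interval from -1.69 to -0.14, and it passed with all 18 arrays in 1 model (adjusted p = 0.0312) and without probe sets at the floor (adjusted p = 0.0434). The groups overlapped, and MEKi/CD40 3 was the lowest of all 18 arrays.

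Mmp14, the membrane-type MMP that activates pro-MMP2, had high and tightly grouped values. They were 12.61, 12.42, 12.71, 12.42 and 12.73 in control, 12.85, 12.23, 12.41 and 12.52 with anti-CD40, 13.03, 12.44, 12.99, 12.55 and 13.12 with MEKi and 13.39, 13.36, 13.33 and 13.20 with MEKi/CD40. No MEKi/CD40 array overlapped another group, and the rise against control was 1.67-fold (log2 0.74 ± 0.08, adjusted p = 0.00207). Of the 3 Mmp14 probe sets, 2 passed and the third gave 0.40 (adjusted p = 0.0772). The other membrane-type genes Mmp16, Mmp17 and Mmp24 did not pass in any comparison, and Mmp16, at 7.09 to 8.62 over all arrays, differed by 0.02 ± 0.26 (95% interval from -0.60 to 0.63).

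Among the genes of the chromosome 9 cluster, Mmp8, Mmp12, Mmp13 and Mmp3 were spread widely within the MEKi/CD40 group (SD 2.17, 2.00, 1.91 and 1.69). Mmp12, the macrophage elastase, was 7.12, 6.68, 5.74, 5.14 and 6.53 in control, 6.72, 7.18, 8.11 and 6.29 with anti-CD40, 9.0, 7.46, 8.38, 6.26 and 7.36 with MEKi and 10.23, 10.56, 13.72 and 9.02 with MEKi/CD40. All MEKi/CD40 arrays lay above every other array, and the rise against control was 24.9-fold (log2 4.64 ± 0.94, adjusted p = 0.0167). Without MEKi/CD40 3 it was 12.9-fold, or 3.69 on the log2 scale, with an adjusted p of 0.00731. Within the lower number series alone it was 3.98, with an adjusted p of 0.281.

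Mmp3, stromelysin 1, was 6.67, 5.85, 5.80, 7.50 and 9.13 in control, 8.76, 8.07, 8.98 and 8.47 with anti-CD40, 9.58, 10.02, 11.02, 8.64 and 9.13 with MEKi and 10.10, 10.32, 13.36 and 9.67 with MEKi/CD40. Control 5 reached the level of the lower treated arrays, and MEKi/CD40 did not overlap control. Mmp3 rose 14.6-fold with both drugs (3.87 ± 1.00, adjusted p = 0.0399), a call that held on leaving out control 5 and was lost on leaving out any of the other 8 arrays (adjusted p up to 0.094). Without MEKi/CD40 3 the difference was 3.04, or 8.22-fold (adjusted p = 0.05). With MEKi the difference was 2.69 ± 0.72 (adjusted p = 0.0597). Mmp13, the main rodent interstitial collagenase, was 6.57, 6.04, 5.41, 8.16 and 5.89 in control, 9.13, 7.40, 8.90 and 6.74 with anti-CD40, 6.96, 6.91, 6.41, 5.05 and 6.35 with MEKi and 8.02, 8.06, 11.41 and 7.05 with MEKi/CD40. The anti-CD40 and MEKi/CD40 arrays reached higher than most controls but overlapped them, and the difference with both drugs was 2.22 ± 0.97 (adjusted p = 0.212). With anti-CD40 it was 1.63 ± 0.72 (adjusted p = 0.927) and with MEKi -0.08 ± 0.57 (adjusted p = 1.0).

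Mmp8, the neutrophil collagenase, was at the floor on 17 arrays and at 6.57 on MEKi/CD40 3. Mmp10, stromelysin 2, overlapped between all groups, from 3.11 to 6.68, and gave 0.02 ± 0.70 with both drugs. On MEKi/CD40 3 the mean of the 8 macrophage markers was 12.77 and that of the 6 endothelial markers 7.91, each the highest of all 18 arrays. Of the macrophage markers Cd68 (13.06), Cd14 (12.03) and Fcgr1 (12.04) were highest there, while Adgre1, Csf1r, C1qa, C1qb and C1qc lay within the control range. The neutrophil-associated gene S100a8 was 10.79, against 7.51 to 9.29 on the other MEKi/CD40 arrays. Csf3r was also highest there (8.22), but S100a9 (7.81) was below MEKi/CD40 2 (8.04). The part of these cell types in the values of that array was not tested.

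**Figure D3:**
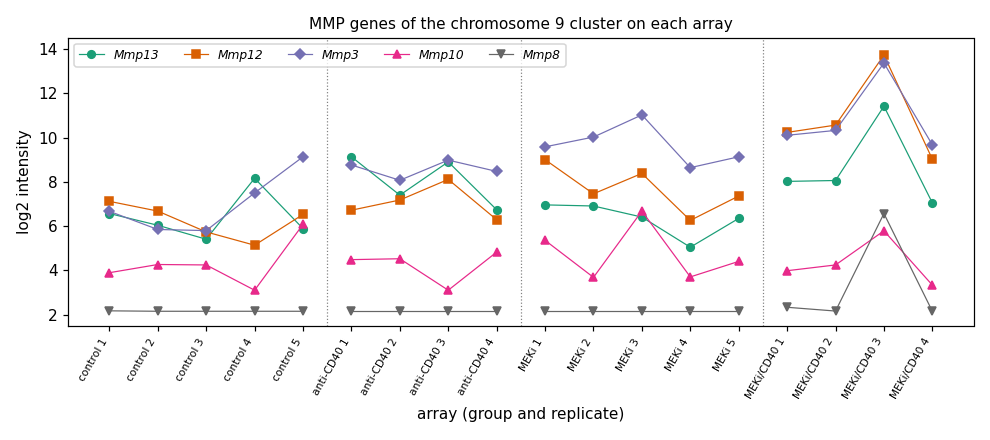
Log2 intensity (vertical axis) of 5 MMP genes of the chromosome 9 cluster on each of the 18 arrays (horizontal axis, grouped by treatment, lines join arrays of a group only to guide the eye). On MEKi/CD40 3 Mmp12 (13.72), Mmp3 (13.36), Mmp13 (11.41) and Mmp8 (6.57) reach their highest values, whereas Mmp10 (5.79) stays within its range on other arrays.

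Mmp19, an MMP of basement membrane and vessel walls, was 4.43, 5.51, 5.64, 4.97 and 6.88 in control, 6.63, 6.03, 5.82 and 7.52 with anti-CD40, 7.90, 6.97, 7.29, 6.14 and 6.72 with MEKi and 8.53, 7.76, 9.06 and 7.81 with MEKi/CD40. The rise with both drugs was 6.98-fold (log2 2.80 ± 0.53, adjusted p = 0.0124), without overlap with control. Mmp23, a membrane-anchored MMP of unusual domain structure, was 3.58, 3.06, 3.58, 3.08 and 3.58 in control, 3.36, 3.63, 3.60 and 3.49 with anti-CD40, 3.57, 4.57, 3.77, 3.77 and 3.77 with MEKi and 6.86, 6.44, 9.53 and 6.33 with MEKi/CD40. The values outside MEKi/CD40 sit low and repeat, as values near the floor do. With both drugs Mmp23 was 15.1-fold higher than in control (3.91 ± 0.66, adjusted p = 0.00843), a lower bound if the control values are background. Without MEKi/CD40 3 it was 8.98-fold higher (3.17, adjusted p = 0.000794), and the MEKi difference was 0.51 ± 0.21 (adjusted p = 0.202). Its interaction, the change with both drugs beyond the sum of the single changes on the log2 scale, was 3.26 ± 0.70 (adjusted p = 0.0264), where 2.47% of all genes passed in either direction. That call was lost without control 3, MEKi 4, anti-CD40 1 or anti-CD40 2, with adjusted p up to 0.0541. Without MEKi/CD40 3 the interaction was 2.51 (adjusted p = 0.00104).

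Mmp11, stromelysin 3 of the tumour stroma, rose 1.57-fold with MEKi (log2 0.65 ± 0.15, adjusted p = 0.039), from 8.40, 8.19, 8.87, 8.22 and 8.57 in control to 9.03, 9.19, 9.39, 8.83 and 9.06. Control 3 lay just above MEKi 4, and the call held without either of these 2 arrays but not without any of the other 8 (adjusted p up to 0.0871). With both drugs the values were 9.56, 9.20, 8.15 and 8.85, the third being MEKi/CD40 3, and the difference of 0.49 ± 0.29 did not pass (adjusted p = 0.406).

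Among the proteoglycan-cleaving ADAMTS proteases, Adamts5 had the smallest adjusted p of all members. Adamts5, the main aggrecanase of mouse cartilage, which also cleaves versican, was 7.36, 7.16, 7.37, 7.6 and 7.23 in control, 7.40, 7.13, 7.44 and 7.40 with anti-CD40, 9.07, 9.09, 9.07, 8.14 and 8.30 with MEKi and 10.28, 10.74, 10.21 and 9.83 with MEKi/CD40. Control and anti-CD40 arrays shared a range, the MEKi arrays lay above it, and the MEKi/CD40 arrays lay above those. It rose 7.57-fold with both drugs (log2 2.92 ± 0.18, adjusted p = 0.000429) and 2.62-fold with MEKi (1.39 ± 0.22, adjusted p = 0.0118), while the anti-CD40 difference was 0.00 ± 0.10 (95% interval from -0.24 to 0.24). It was the single member called between MEKi/CD40 and MEKi, where 2.83% of all genes passed in either direction (1.53 ± 0.28, adjusted p = 0.0436). That call was lost on leaving out any 1 of the 9 arrays (adjusted p up to 0.101). The interaction was 1.53 ± 0.30 (adjusted p = 0.0183), and passed on leaving out each array in turn (adjusted p up to 0.0441). Of the 4 Adamts5 probe sets, 3 rose with both drugs, by 2.53 to 3.06, and the fourth was at 2.16 throughout.

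Adamts4, the other aggrecanase, was 9.82, 9.78, 9.63, 8.89 and 9.57 in control, 9.72, 9.57, 9.73 and 9.62 with anti-CD40, 10.27, 9.61, 10.15, 9.27 and 9.68 with MEKi and 11.06, 10.09, 10.68 and 10.37 with MEKi/CD40. The MEKi/CD40 arrays overlapped MEKi but not control, and the rise of 1.01 ± 0.26 on the log2 scale had an adjusted p of 0.0388. Adamts12, which cleaves cartilage oligomeric matrix protein, was 7.53, 8.40, 8.03, 6.49 and 7.85 in control, 6.80, 7.90, 7.6 and 8.48 with anti-CD40, 8.57, 7.58, 8.23, 7.22 and 8.38 with MEKi and 9.65, 8.99, 9.41 and 9.30 with MEKi/CD40. It rose 3.20-fold (1.68 ± 0.38, adjusted p = 0.0244), with no overlap between MEKi/CD40 and the other groups. Adamts8, a proteoglycanase with reported activity against vessel growth, fell. Its values were 5.11, 4.83, 5.65, 5.90 and 6.36 in control, 5.58, 5.23, 4.41 and 5.20 with anti-CD40, 4.81, 4.42, 4.02, 3.72 and 4.14 with MEKi and 4.48, 3.72, 4.54 and 4.06 with MEKi/CD40, and the log2 difference was -1.37 ± 0.34 with both drugs (adjusted p = 0.037) and -1.35 ± 0.32 with MEKi (adjusted p = 0.0424). The MEKi call held only without control 2 (adjusted p otherwise up to 0.0932). The 2 control arrays of the lower number series held the 2 lowest control values, and against them alone the MEKi/CD40 difference was -0.77 (adjusted p = 0.295). Adamts15 was at 2.16 in every array outside MEKi/CD40 and at 2.47, 2.84, 7.70 and 3.56 within it (adjusted p = 0.315), the highest again being MEKi/CD40 3.

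The ADAMTS-like genes, which encode matrix glycoproteins without a protease domain, moved in both directions. Adamtsl1 was at the floor on the 14 arrays of the other groups, at 2.16 to 2.20, and at 3.62, 5.16, 7.39 and 3.83 with MEKi/CD40. In the fit of the deposited values the log2 difference from control was 2.84 ± 0.74 (adjusted p = 0.0424). With values below 3 raised to 3 the rise was at least 4.0-fold, and the call was lost. Without MEKi/CD40 3 this bound was 2.3-fold, and the fit of the deposited values gave an adjusted p of 0.00986. In the main fit 2 other probe sets of the gene gave 0.45 and 0.29 with adjusted p = 0.601 each. Adamtsl3 was 6.02, 5.08, 7.82, 7.28 and 5.11 in control, 8.89, 7.33, 6.77 and 5.41 with anti-CD40, 4.13, 4.96, 4.16, 3.86 and 4.65 with MEKi and 3.54, 4.13, 3.31 and 3.77 with MEKi/CD40. Neither MEK inhibitor group overlapped control, and Adamtsl3 fell by 2.57 on the log2 scale with both drugs (SE 0.64, adjusted p = 0.0346), while MEKi alone gave -1.91 ± 0.58 (adjusted p = 0.0867).

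The antibody's addition to the inhibitor and the inhibitor's addition to the antibody were asked by the remaining pairs. Against anti-CD40, MEKi/CD40 had 8 higher members (Adamts4, Adamts5, Adamts12, Mmp2, Mmp14, Mmp23, Timp1 and Timp3) and 1 lower (Adamtsl3), where 5.84% of all genes were higher and 9.06% lower. The largest of these were Mmp23 at 3.77 ± 0.74 (adjusted p = 0.0239), Timp3 at 3.09 ± 0.30 (adjusted p = 0.0034) and Adamts5 at 2.92 ± 0.19 (adjusted p = 0.0026), with Adamtsl3 at -3.41 ± 0.72 (adjusted p = 0.0309). Mmp12, at 3.81 ± 1.05, was not called (adjusted p = 0.0705). On leaving out each array in turn Adamts5, Mmp2, Mmp14 and Timp3 kept passing (adjusted p up to 0.0482). Timp1 passed only without anti-CD40 2, Adamts4 only without MEKi/CD40 1 or 2, and Adamts12 and Adamtsl3 only without anti-CD40 1 or 4, while Mmp23 was lost without MEKi/CD40 1 or any anti-CD40 array (adjusted p up to 0.118 over these). All these members are also called in the comparison with control, which shares the MEKi/CD40 arrays. Against MEKi, Mmp23 gave 3.40 ± 0.68 (adjusted p = 0.051), Adamts12 1.34 ± 0.31 (adjusted p = 0.0699), Timp1 0.49 ± 0.17 (adjusted p = 0.198) and Timp2 -0.02 ± 0.12 (95% interval from -0.31 to 0.28).

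Of the 14 calls between MEKi/CD40 and control, 8 held on leaving out each of the 9 arrays in turn (Adamts5, Mmp2, Mmp12, Mmp14, Mmp19, Mmp23, Timp1 and Timp3, with adjusted p up to 0.0467). With the number series as a block, where 11.5% of all genes passed in either direction, 6 of these 8 passed, while Mmp12 (3.98, adjusted p = 0.119) and Mmp23 (3.97, adjusted p = 0.0504) did not. The other 6 calls did not hold on leaving out each array, and all 6 were lost with the number series as a block. Adamts4 passed only without MEKi/CD40 2 (adjusted p otherwise up to 0.092), Mmp3 only without control 5 (up to 0.094), Adamts8 only without control 2 or MEKi/CD40 3 (up to 0.0983) and Adamtsl3 only without control 2 or control 5 (up to 0.0902). Adamts12 was lost without control 1, MEKi/CD40 1 or MEKi/CD40 4 (up to 0.0719), and Adamtsl1 without any control or MEKi/CD40 2 (up to 0.103). Against the 2 controls of the lower number series alone 3 members passed (Adamts5 at 3.00, adjusted p = 0.0357, Mmp2 at 1.67, adjusted p = 0.0358, and Mmp14 at 0.81, adjusted p = 0.0417), and 2.11% of all genes did in either direction.

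Genes that work with these enzymes moved in the same comparison. Over all genes, 7.65% were higher with MEKi/CD40 than in control and 12.0% lower. Of 29 measured partners in proteolysis 11 were higher and 0 lower. Their adjusted p-values are from the deposited values, also where a fold is given with values below 3 raised to 3. By p the first were Pcolce2, an enhancer of procollagen processing (at least 14.9-fold with values below 3 raised to 3, adjusted p = 0.000775), Dpp4, a cell-surface peptidase (3.10 ± 0.39, adjusted p = 0.00297), Lrp1, the receptor that clears MMPs and TIMPs (1.19 ± 0.16, adjusted p = 0.00341), Htra3, a secreted serine protease (2.95 ± 0.39, adjusted p = 0.00346), and Tll1, a procollagen-processing protease at the floor in control (at least 1.56-fold, adjusted p = 0.00353). Reck, a membrane-anchored inhibitor of MMPs, was 1.28 ± 0.30 higher (adjusted p = 0.0298) and also rose with MEKi (0.90 ± 0.10, adjusted p = 0.00427). The plasminogen activator Plau and its receptor Plaur gave 0.28 ± 0.68 and 0.05 ± 0.47 (adjusted p = 1.0 each), and on MEKi/CD40 3 they read 5.78 and 11.10, their highest values. Of 7 measured ADAMTS substrates and binding partners Fbn2, a fibrillin, was higher (4.41 ± 0.69, adjusted p = 0.00613), and the versican gene Vcan gave 0.83 ± 0.26 (adjusted p = 0.0762).

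Marker lists of cell types differed in how far they moved. Against control, 7.65% of all genes were higher and 12.0% lower with MEKi/CD40, and 6.08% and 5.09% with MEKi. All 8 fibroblast markers were higher with MEKi/CD40 than in control, with Pdgfra at 0.87 ± 0.14 (adjusted p = 0.00692), and 6 of 8 with MEKi. The mean of the 8 lay between 8.10 and 8.94 in control, 8.72 and 9.37 with anti-CD40, 10.44 and 11.45 with MEKi and 12.44 and 12.94 with MEKi/CD40, the same order of groups as Timp3 and Adamts5 between control, MEKi and MEKi/CD40. Of 8 macrophage markers 1, Csf1r, was lower with MEKi/CD40, and Adgre1 gave -0.29 ± 0.24 (adjusted p = 0.601). With MEKi 2 of the 8 were lower, Csf1r and Cd68. Of 6 neutrophil markers 2, S100a8 and S100a9, were higher with MEKi/CD40 and also with MEKi. S100a8 rose by 5.59 ± 0.61 with both drugs (adjusted p = 0.0019), while Camp, Ngp and Cxcr2 were at the floor on every array. The adipocyte list passed for 0 of 9 markers with MEKi/CD40 and for 1, Fabp4, with MEKi. Its mean was high on MEKi/CD40 2 (10.37) and MEKi/CD40 4 (5.91) against 3.15 to 3.43 in control. The skeletal muscle list was at 8.25 on MEKi/CD40 4 against 2.35 to 2.90 on the other 17 arrays. The mean of the 8 epidermis markers was 3.36 to 3.62 in control, 3.38 to 3.60 with anti-CD40, 3.66 to 4.41 with MEKi and 3.89 to 4.35 with MEKi/CD40. Of them Sbsn was higher with MEKi/CD40 (3.69 ± 0.44, adjusted p = 0.00251) and with MEKi (1.80 ± 0.45, adjusted p = 0.0485), Krt10 was higher with MEKi (0.40 ± 0.09, adjusted p = 0.0324), and Krt14 was at 2.16 on every control and anti-CD40 array, 2.86 to 5.45 with MEKi and 2.16 to 5.62 with MEKi/CD40, while Krt1, Krt15 and Dsg1a were at the floor on all arrays. Adipoq ran from 2.47 to 13.30 in the MEKi/CD40 group. Without MEKi/CD40 2, MEKi/CD40 4 and anti-CD40 3, the 3 arrays with the highest adipocyte means, 8 members were called against control, where 9.67% of all genes passed in either direction (Adamts5, Mmp2, Mmp12, Mmp14, Mmp19, Mmp23, Timp1 and Timp3). Of 8 MEK-output genes 2 were lower (Dusp4 and Etv5) and 1 higher (Spry2) with MEKi/CD40, and Dusp6 gave -1.28 ± 0.37 (adjusted p = 0.0625). With MEKi 1 was lower (Etv5) and 1 higher (Spry2), and Dusp6 was 11.97 to 12.73 against 12.39 to 12.81 in control. The median log2 difference of the list was -0.75 with both drugs and -0.11 with MEKi. The part of any of these cell types in the members' values was not tested.

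**Figure D4:**
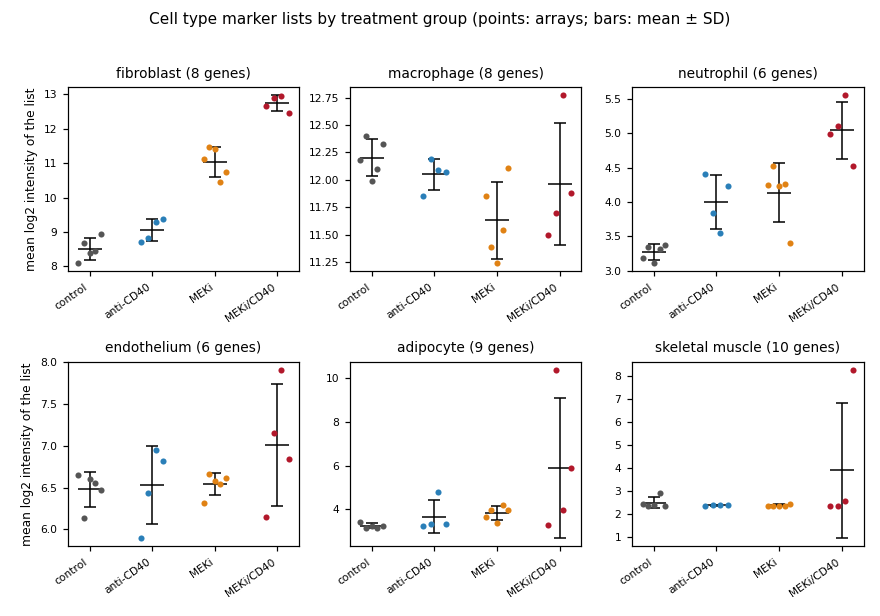
Mean log2 intensity of 6 cell type marker lists (vertical axis) in the 4 treatment groups (horizontal axis), where points are arrays and bars are the mean ± SD. The fibroblast list separates control (8.10 to 8.94), MEKi (10.44 to 11.45) and MEKi/CD40 (12.44 to 12.94), and single MEKi/CD40 arrays stand out for adipocyte (10.37) and skeletal muscle (8.25) markers.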

How the data were processed

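RNA from snap-frozen pieces of 18 MC38 tumours, unsorted, 1 animal and 1 Affymetrix array each, was measured in 4 groups of 4 or 5. The deposited values are log2 intensities per probe set, and RMA is named in the submitters' processing notes without a version. Of all deposited values, 34.5% equal the lowest one, so small differences near it are not measurable. No further normalization was applied. Of 45101 probe sets 64 controls were set aside and 45037 tested, of which 34945 carried 1 gene symbol, 932 several and 9160 none. Symbols came from the platform annotation, and 34741 single-symbol sets matched RefSeq by gene ID.

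Each pair of groups was fitted alone with limma 3.58.1 (R 4.3.3) on the log2 values, and the interaction on all 18 arrays, with Benjamini-Hochberg adjustment over the 45037 probe sets and a threshold of 0.05. Errors are SE of the fit or SD of arrays. The arrays' number limits precision. The fit was tested on simulated data. Members, lists and tests were chosen with earlier results of these data known. Named genes were the members called in any comparison, Timp1 to Timp4, Mmp2, Mmp3, Mmp9, Mmp13, Mmp14, the first 5 called partners by p and preset markers. Mmp8, Mmp10, Mmp16, Mmp17, Adamts15 and markers beyond the preset ones were named after their values were seen. Alternatives were a block for number series or replicate number, single series, cyclic loess, floor and filter, 1 model for all arrays, moderation, choice of probe set, adipocyte score and leaving out each array. Summaries and figures used Python 3.11.15, pandas 2.3.3 and matplotlib 3.10.9.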

Additional observations from a re-analysis of the deposited data

Results flagged for a closer look

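Within groups of 4 or 5 arrays, 76 gene and group combinations were searched for a sample far from the rest, and 7 were found, where chance gives about 1 in 20. Adamts5 was lowest in anti-CD40 2 at 7.13, Adamts4 was lowest in control 4 at 8.89, and Mmp23 was highest in MEKi 2 at 4.57 and in MEKi/CD40 3 at 9.53. The other 3 were differences at the floor, in Adamtsl1 in MEKi 2 at 2.20 and in Timp4 in anti-CD40 3 at 3.44 and in MEKi 5 at 3.41.

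The effect of both drugs differed from the sum of the single effects for Adamts5, by 1.53 on the log2 scale (limma adjusted p = 0.0183), and for Mmp23, by 3.26 (adjusted p = 0.0264).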

How the results depend on the processing

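The number of members called by limma depended on the setting. For MEKi/CD40 against control, 14 became 8 with the number series as a block, 3 in the lower series only, 8 without the 3 arrays highest in adipocyte score, 8 with that score as a covariate and 8 to 13 on leaving out 1 array. For MEKi against control, 5 became 3 with the series block, 0 in either series alone and 12 without probe sets at the floor. It became 3 with trend and robust moderation, 9 with the mean of all probe sets and 3 to 6 on leaving out 1 array. Over all probe sets, 1799 higher and 1726 lower became 1465 and 1267 with the block. They became 27 and 19 in the lower series, 6 and 3 in the higher, and 733 and 534 with trend and robust moderation. They were 2963 and 3196 of 23582 without floor probe sets, and 1317 and 1390 of 18193 genes with the mean. On leaving out 1 array they were 990 to 1698 and 689 to 1678. For anti-CD40 against control the count was 0 throughout, also on leaving out 1 array (0 to 0). An unadjusted p under 0.05 was found for 1 member and for 2423 of 45037 probe sets. Over all probe sets 0 were higher and 0 lower without a change of setting, and 6 and 22 in the lower series. For MEKi/CD40 against anti-CD40, 9 became 14 without floor probe sets, 1 without the adipocyte-high arrays and 4 to 10 on leaving out 1 array. Over all probe sets, 1991 higher and 3240 lower became 173 and 234 without the adipocyte-high arrays. They were 3121 and 4411 of 23582 without floor probe sets, and 946 to 2811 and 1758 to 3783 on leaving out 1 array. For MEKi/CD40 against MEKi, 1 became 0 with the series block, in the lower series and with trend and robust moderation. It was also 0 without adipocyte-high arrays and with the score as a covariate. It became 2 with the mean of probe sets, 5 without floor probe sets and 6 with all 18 arrays in 1 model. It was 0 to 2 on leaving out 1 array. Over all probe sets, 332 higher and 795 lower became 5 and 23 with the block and 4 and 6 in the lower series. They became 9 and 2 with the moderation, 169 and 210 without adipocyte-high arrays and 84 and 139 with the covariate. Without floor probe sets 1004 and 1788 of 23582 passed, and with the mean 230 and 488 of 18193 genes. With 1 model they were 1500 and 2786, and on leaving out 1 array 10 to 293 and 19 to 557. The interaction count of 2 became 0 in the lower series and 1 to 3 on leaving out 1 array. Over all probe sets, 479 higher and 712 lower became 32 and 24 in the lower series. On leaving out 1 array they were 241 to 559 and 370 to 878. The filter on floor probe sets tests fewer of them and some settings hold fewer arrays, but the cause of the changes was not tested. Of 718 gene values under alternatives 207 lost and 8 gained a call and 0 reversed. Fits with the number series could not be made against anti-CD40, where all arrays are of 1 series, and MEKi against control holds none of the 3 adipocyte-high arrays. Differences near the floor cannot be measured.

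With replicate number as a block, the counts were 0 for MEKi/CD40, MEKi and anti-CD40, each against control. For MEKi/CD40 they were 1 against anti-CD40 and 0 against MEKi, and for the interaction 1. Over all 45037 probe sets, 31 were higher and 82 lower for MEKi/CD40 against control, and 0 and 0 for MEKi and for anti-CD40. Against anti-CD40 they were 465 and 811, against MEKi 0 and 0, and for the interaction 298 and 409. Same-numbered arrays deviated together weakly or not at all (correlations from -0.267 to 0.235), so the numbers were not taken as pairs.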

Other observations

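Over the 18 arrays, the genes most like Timp1 among 10274 genes above the floor on every array were Xdh (Pearson r = 0.941), Cxcl12 (0.939) and Cryab (0.931). Those most like Adamts5 were Prelp (0.967), S100a16 (0.964) and Nid1 (0.962). The arrays share their treatment groups and these values are a description without a test.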
